A study of Mus musculus with 24 samples.

Results

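Nuclear receptor genes other than the REV-ERB pair were followed over genotype and circadian time in the inguinal pad, which is subcutaneous white fat, of mice with and without the clock gene Bmal1 in adipocytes. The family was taken as 42 named genes, and a gene entered when a probe set carried its symbol alone. By that rule 40 of the 42 genes were measured, each by 1 probe set, among 19938 genes on the arrays, and Nr1h2 and Nr2e3 were not analysed here. The genes were taken as a family and not by an expression value, but with earlier results of these data known.

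Knockout mice had the genotype aP2-Cre+/- Bmal1fx/fx and control mice the genotype Bmal1fx/fx. Both genotypes were sampled every 6 h (CT0, CT6, CT12 and CT18, in circadian time), with 3 arrays of separate mice in each of the 8 groups and 24 arrays in all. CT0 is the start of the subjective day. Every mouse came from 6 or more generations of crosses to C57BL/6J, ate chow, had been in constant darkness for 36 h before collection began and had been fasted for 24 h, so the fasted state was shared by all groups. The animals' age was not given in the sources used here. Control mice carried the floxed alleles and no Cre, so an effect of Cre itself cannot be told apart from an effect of the deletion, and the aP2 promoter can be active in cells other than adipocytes.

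Nuclear receptors are transcription factors that bind DNA through a pair of zinc fingers and hold a small lipophilic ligand, such as a steroid, thyroid hormone, a retinoid, a bile acid or a fatty acid, in a separate pocket. Ligand binding exchanges corepressors for coactivators at target genes, and many members work as a heterodimer with a retinoid X receptor. In fat, these receptors link hormones and lipids to lipid storage, fatty acid oxidation and heat production, and several of them have been described as rhythmic in metabolic tissues. The REV-ERB receptors are part of the clock itself and were used here for comparison only.

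Values are log2 expression as deposited, and errors are the SD of 3 arrays for a group mean and the standard error (SE) that limma gave for a difference. A difference counted as called when its limma p, adjusted by Benjamini-Hochberg over all 19938 genes, was under 0.05. The medians of the 24 arrays lay between 6.46 and 6.56, and the markers of white adipocytes were high on every array, with a mean over 11 genes between 10.23 and 10.97. Arntl, the gene symbol of Bmal1, was measured by a probe set whose place relative to the deleted part is not given in the sources used here, so it is a weak check of the labels. Its mean was 7.97 ± 0.0025 in control and 7.43 ± 0.12 in knockout fat at CT0 (SD, n = 3), and 6.34 ± 0.37 and 6.74 ± 0.25 at CT12, with a mean genotype difference of 0.01 ± 0.08 over the 4 times. In such whole tissue, fewer cells of a type and less RNA per cell cannot be told apart.

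The receptor genes spanned a wide range of signal. Of the 40 genes, 13 lay above the median gene of the arrays, 6.50, and 27 below it. Because probe sets differ in their response, a level says here only whether a gene was above or below that median. The 13 were Nr2c2, Nr3c1, Thra, Esr1, Nr2f2, Rxra, Nr1h3, Thrb, Rarg, Nr6a1, Ppard, Nr4a2 and Nr2c1. Among them Nr3c1, the glucocorticoid receptor, had a mean over all arrays of 8.41, Thra, a thyroid hormone receptor, 8.02, Esr1, the estrogen receptor alpha, 7.94, and Nr1h3, the oxysterol receptor LXR alpha, 7.40. Ppara, the fatty acid receptor of oxidative tissues, lay below the median at 6.12, and so did the bile acid receptor Nr1h4 at 5.73, the vitamin D receptor Vdr at 5.45 and the xenobiotic receptors Nr1i3 at 5.50 and Nr1i2 at 5.16. The lowest means belonged to Hnf4g at 4.17, Nr0b1 at 4.76, Nr4a3 at 4.88 and Rorb at 4.96, all under 5.

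Loss of adipocyte Bmal1 was compared with control over the day. For the mean genotype difference over the 4 times, 0 of the 40 receptor genes were called by limma, against 4 of all genes (0.0201% of them called). At an unadjusted p under 0.05 there were 3 of the 40 (7.5%), against 6.07% of all genes. The differences ran from -0.16 to 0.22, with 25 above 0 and 15 below, a median of 0.01 for the receptors and of 0.00 for all genes. A p that misses the threshold does not show equal expression, so the intervals are given too. The 95% interval lay inside a 1.5-fold difference in either direction for 39 of 40 genes, with Pgr the exception, and inside 1.25-fold for 38, with Pgr and Nr1h4 outside. The median width of these intervals to either side of the estimate was 0.11. The intervals bound a difference in probe set signal, not in transcript amount, and 27 of the 40 genes lay below the median gene. The share of all genes inside the same bounds is not given here, so these counts do not set the receptors apart.

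**Figure D1:**
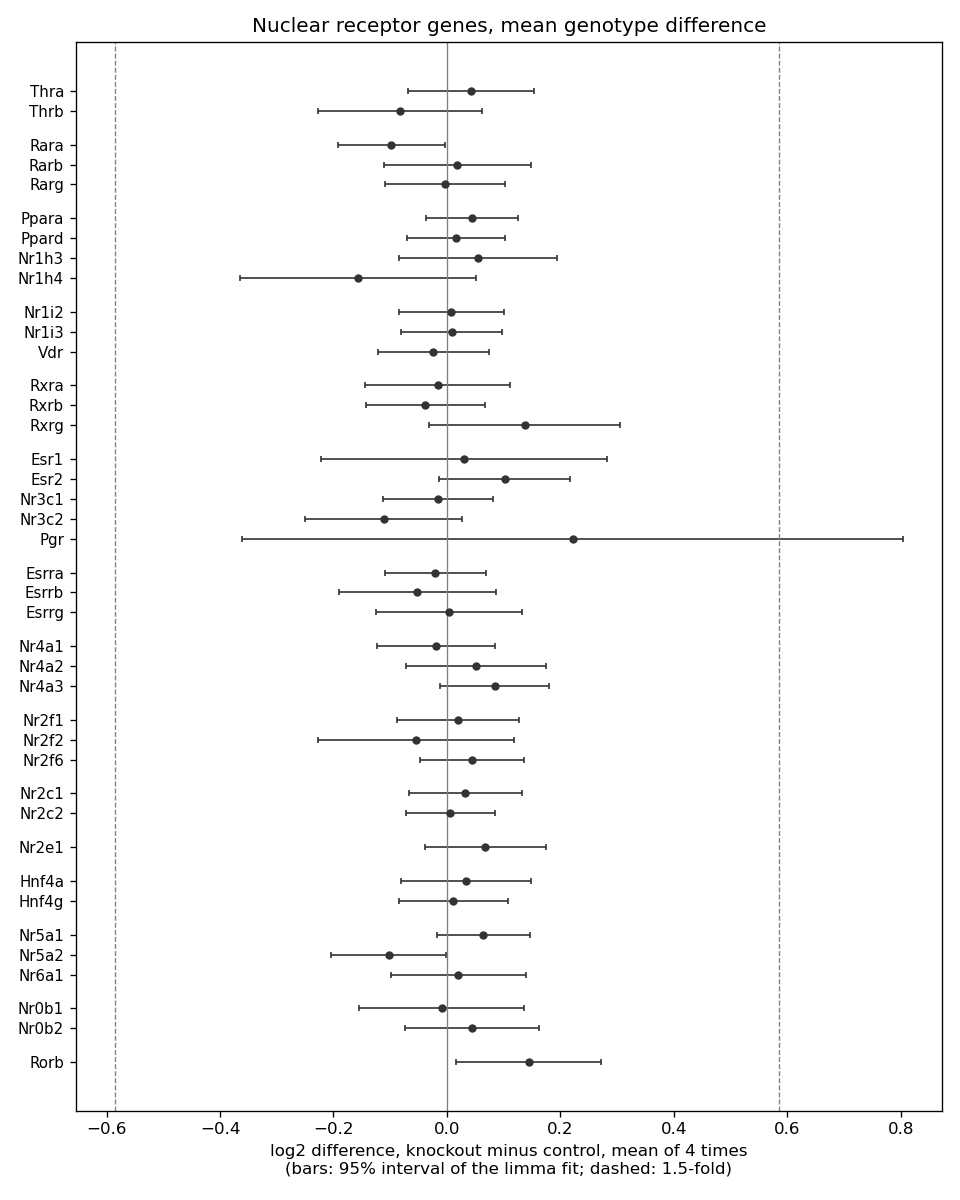
Mean log2 difference, knockout minus control, over 4 circadian times for 40 receptor genes, one row per gene, ordered by subfamily. Points are limma estimates and bars their 95% intervals, dashed lines mark 1.5-fold, and only the bar of Pgr crosses one of them.

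The 6 genes with the smallest p for that difference were Rorb, Rara, Nr5a2, Esr2, Nr4a3 and Nr3c2, and none was called. Rorb, an orphan receptor of the ROR group known from retina and brain, stayed between 4.74 and 5.08 in control fat and between 4.84 and 5.42 in knockout fat. Its difference was 0.14 ± 0.06 (adjusted p = 0.755). The highest value, 5.42, came from a single knockout array at CT0, replicate 2, which recurs below, and at CT12 all 3 knockout arrays, at 5.12, 5.01 and 4.99, lay above all control arrays, at 4.87, 4.97 and 4.74.

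Nr5a2, the liver receptor homolog that acts in bile acid and steroid pathways, was 0.10 ± 0.05 lower in knockout than in control on the log2 scale (adjusted p = 0.818). Control arrays ran from 5.49 to 5.86 and knockout arrays from 5.31 to 5.72, so the genotypes overlapped widely, although only 2 of 12 knockout arrays exceeded the control mean of their time. Nr3c2, the mineralocorticoid receptor, had a difference of -0.11 ± 0.07 (adjusted p = 0.903). Its control arrays lay between 5.58 and 5.95, and the lowest knockout value, 5.09, was replicate 1 at CT18, while the other knockout arrays lay at 5.53 or above. Esr2, the estrogen receptor beta, was 0.10 ± 0.06 higher in knockout fat (adjusted p = 0.879), with 10 of 12 knockout arrays above the control mean of their time and arrays from 5.15 to 5.65 in control against 5.32 to 5.87 in knockout.

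Rara, the alpha receptor of retinoic acid, had its widest genotype difference at CT18. At that time control arrays read 6.47, 6.40 and 6.28 and knockout arrays 6.16, 6.04 and 6.23. All control arrays were thus above all knockout arrays, with a difference of -0.24 (adjusted p = 0.813). At CT0 the same gene read 6.18, 6.32 and 6.40 in control and 6.27, 6.35 and 6.33 in knockout, and the groups overlapped. Over the 4 times the difference was -0.10 ± 0.05 (adjusted p = 0.791). The test of whether the genotype difference itself varied over time called 0 receptor genes and 0 of all 19938 genes by limma (0% called), and 1 of the 40 had an unadjusted interaction p under 0.05, against 2.98% of all genes.

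Genotypes were also compared at single times, where 3 arrays stood against 3. At CT0, CT6 and CT12 no receptor gene and no other gene was called (0%), and at CT18 0 receptor genes were called against 1 of all genes (0.00502%). Unadjusted, the receptor genes under 0.05 were 1 at CT0 (Nr5a1, the steroidogenic factor, 0.17 higher in knockout), 1 at CT6 (Nr4a1), 0 at CT12 and 3 at CT18 (Rara, Nr2f6 and Nr2e1), against 5.55%, 3.77%, 2.49% and 6.05% of all genes. At CT0 the arrays of the genotypes did not overlap for Rarg, Nr4a1 and Nr5a1, at CT6 for Rarb, at CT12 for Esrra, Esrrb and Rorb and at CT18 for Rara, Nr1h4, Rxrg and Nr5a1. The share of all genes without overlap was 10.8%, 11.3%, 8.09% and 8.58% at the same times. Those 3, 1, 3 and 4 of the 40 receptor genes are near or below that background.

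The 3 genes with the smallest interaction p were Nr4a1, Rarb and Nr2f6, and none was called. Rarb, the beta retinoic acid receptor, read 6.02, 5.97 and 5.94 in control and 6.21, 6.07 and 6.12 in knockout at CT6, where all knockout arrays were higher. At CT18 it read 6.17, 6.17 and 5.89 in control and 5.99, 5.93 and 5.63 in knockout, so the order of the means was the opposite and the arrays overlapped. Nr2f6, an orphan repressor of the COUP-TF group, differed little by genotype at CT0, CT6 and CT12, with differences between -0.02 and 0.00, and at CT18 read 6.44, 6.25 and 6.14 in control and 6.41, 6.43 and 6.65 in knockout, a difference of 0.22 (adjusted p = 0.813). That difference was 0.15 without replicate 3 of either genotype at CT18, and 0.08 without both genotypes' replicate 1 at CT12 and replicate 3 at CT18.

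The NR4A genes are immediate early genes that encode receptors acting without a known hormone. They are induced by cyclic AMP and cold or adrenergic stimuli in fat, and their promoters are known for cyclic AMP response elements. The upstream sequences of the 3 genes are shown because each holds several copies of the core of that element, TGACG or its reverse complement CGTCA, which are in capitals. They come from RefSeq, assembly GRCm38.p6, and are written 5′ to 3′ on the strand of the gene, from chr15:101266596-101266845 (plus strand, the 250 bases before the start) for Nr4a1, chr2:57124080-57124233 (minus strand) for Nr4a2 and chr4:48045055-48045192 (plus strand) for Nr4a3.
Nr4a1: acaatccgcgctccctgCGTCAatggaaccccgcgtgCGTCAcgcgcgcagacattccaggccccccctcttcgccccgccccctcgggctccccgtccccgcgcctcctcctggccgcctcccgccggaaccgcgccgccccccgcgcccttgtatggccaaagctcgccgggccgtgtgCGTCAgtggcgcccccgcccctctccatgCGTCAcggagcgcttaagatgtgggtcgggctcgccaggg
Nr4a2: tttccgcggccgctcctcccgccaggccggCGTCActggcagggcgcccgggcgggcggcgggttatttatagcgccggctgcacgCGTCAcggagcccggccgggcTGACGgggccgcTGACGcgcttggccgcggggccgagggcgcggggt
Nr4a3: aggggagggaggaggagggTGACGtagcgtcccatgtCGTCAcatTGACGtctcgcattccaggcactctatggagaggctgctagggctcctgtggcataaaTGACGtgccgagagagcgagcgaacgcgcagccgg

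Within the 250 bases before the start, each of the 3 genes held 4 copies of that core, counted on both strands. Of the 42 receptor genes 38 had an entry in the promoter table, whose entries run from 250 bases before to 50 after a start, and the core was found in 15 of those 38 (39.5%), against 23.0% of all genes in the table. A gene counted when any of its listed starts held a match. Starts per gene differed, with 4 for Rara and for Esrrg, and 32851 starts for 27025 genes in the whole table. The shares were not adjusted for the number of starts. A match is a description of the letters, not of a bound site.

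Nr4a1 read 5.77, 5.87 and 5.84 in control fat at CT0 and 5.96, 6.09 and 5.92 in knockout fat, and there all knockout arrays were higher. At CT6 the order was turned, with 6.09, 6.03 and 5.96 in control and 5.99, 5.81 and 5.58 in knockout, a difference of -0.23 (adjusted p = 1.00) and 1 knockout array within the control range. At CT12 and CT18 the arrays of both genotypes overlapped. The interaction had an unadjusted p of 0.0420 and an adjusted p of 1.00.

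Nr4a2 lay between 6.46 and 7.00 in control and between 6.50 and 6.98 in knockout, and its mean genotype difference was 0.05. Nr4a3 lay between 4.72 and 4.98 in control and between 4.75 and 5.07 in knockout, with a mean difference of 0.08 ± 0.05 (adjusted p = 0.879). On the mean of both genotypes, the distance between the highest and lowest time mean was 0.16 for Nr4a1, 0.10 for Nr4a2 and 0.03 for Nr4a3. The median of that distance over all genes was 0.138. Nr4a1 and Nr4a3 lay below the median gene in this fasted tissue. Counted apart from the receptors, a list of other immediate early genes had 0 of 19 called for time, against 0.883% of all genes, and 0 for genotype, against 0.0201%. Unadjusted, 7 of the 19 (36.8%) were under 0.05 in the F test of time over both genotypes, against 16.1% of all genes. Within control fat there were 5 of 19 (26.3%), against 5.8%, and within knockout fat 1 of 19 (5.26%), against 13.4%. Fos, a subunit of the AP-1 factor, had a mean genotype difference of -0.03 ± 0.06, and the smallest genotype p in that list belonged to Dusp1, a phosphatase gene, at -0.32 ± 0.07 (adjusted p = 0.182), and to Btg2 at -0.21 ± 0.05 (adjusted p = 0.182).

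**Figure D2:**
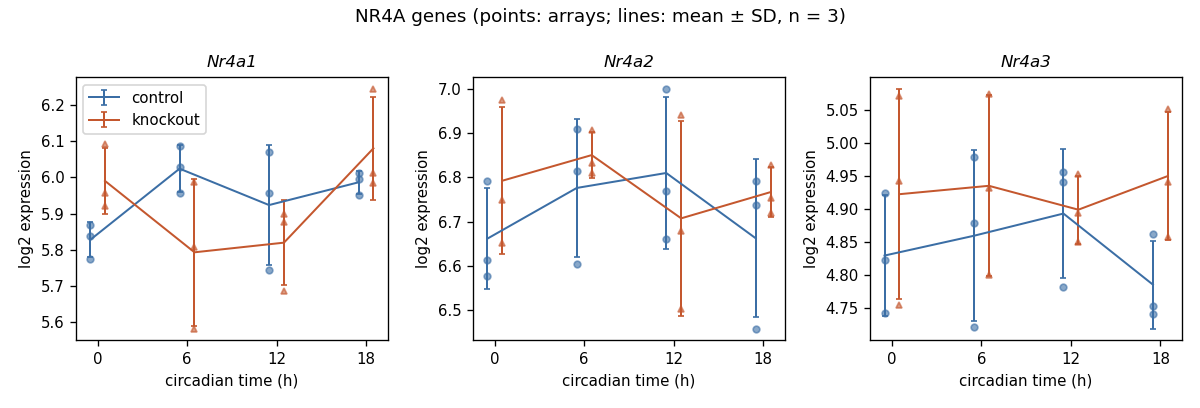
Log2 expression of Nr4a1, Nr4a2 and Nr4a3 against circadian time in hours. Points are arrays, lines join group means with SD (n = 3), control in blue circles and knockout in red triangles. For Nr4a1 the knockout mean lies above control at CT0 and below it at CT6.

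Variation over circadian time was tested on the mean of both genotypes. In that F test 0 of the 40 receptor genes were called by limma, against 176 of all genes (0.883%). Unadjusted, 5 of 40 (12.5%) were under 0.05, namely Thra, Rarg, Nr3c1, Hnf4a and Nr1h4, against 16.1% of all genes. The median distance between the highest and lowest time mean was 0.142 for the receptors and 0.138 for all genes. Within control fat 0 receptor genes were called against 12 of all genes (0.0602%), with 1 of 40 unadjusted (Nr1i3) against 5.8%. Within knockout fat 0 were called against 14 (0.0702%), with 4 of 40 unadjusted (Thra, Nr1h4, Nr3c1 and Nr4a1) against 13.4%. By contrast 11 of 16 measured clock genes were called in the test over both genotypes. Their median distance between the highest and lowest time mean was 0.765, against 0.142 for the receptors. These calls therefore do not show that changes of the size seen in the receptors could be called.

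Thra had the smallest p for time among the receptor genes. Its control arrays read 8.05, 8.12 and 8.04 at CT0, 8.06, 8.07 and 8.21 at CT6, 8.12, 7.79 and 7.88 at CT12, and 7.80, 7.76 and 8.09 for the CT18 group. Its knockout arrays read 8.19, 7.98 and 8.15, then 8.22, 8.39 and 8.13, then 7.91, 7.86 and 7.88, and then 8.10, 7.95 and 7.72 at the same times. In both genotypes the mean was highest at CT6, and 1 of the control arrays at CT12 and at CT18 and 1 knockout array at CT18 stayed near the daytime level.

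The mean of both genotypes was 8.09 at CT0, 8.18 at CT6, 7.91 at CT12 and 7.90 at CT18. CT18 minus CT6 was -0.28 ± 0.08 (adjusted p = 0.0855), with a 95% interval from -0.43 to -0.12, and the F test of time had an adjusted p of 0.104. Neither passed. With limma's array weights the F test passed (adjusted p = 0.025), and over the other alternatives and the 24 fits that each left out 1 array its adjusted p ran up to 0.190. Thra and Nr1d1, the REV-ERB alpha gene, lie on opposite strands, and their gene spans overlap by 1075 bases in RefSeq. Nr1d1 had its highest mean at CT6 too, at 9.90 in control and 9.26 in knockout, and CT18 minus CT6 for it was -2.33. Whether the Thra probe set touches the shared stretch was not tested.

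**Figure D3:**
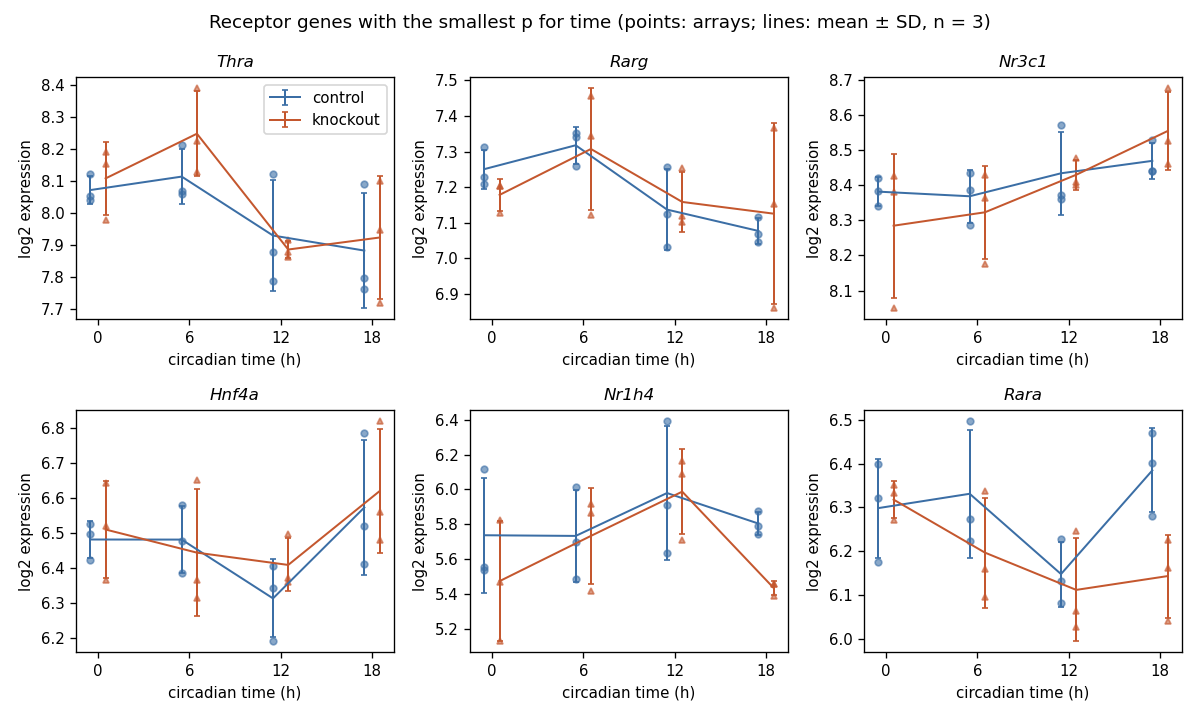
Log2 expression against circadian time in hours for Thra, Rarg, Nr3c1, Hnf4a, Nr1h4 and Rara, the 6 receptor genes with the smallest p for time. Points are arrays, lines join group means with SD (n = 3), control in blue circles and knockout in red triangles. Thra has its highest mean at CT6 in both genotypes, and the spread of 3 arrays is of the size of the change over time in most panels.

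Rarg, the gamma retinoic acid receptor, also had its highest mean at CT6 in both genotypes. Control arrays read 7.34, 7.26 and 7.35 at CT6 and 7.05, 7.12 and 7.07 at CT18, which do not overlap. Knockout arrays read 7.46, 7.12 and 7.34 at CT6 and 7.37, 7.15 and 6.86 at CT18, which do. CT18 minus CT6 was -0.21 ± 0.07 over both genotypes (adjusted p = 0.157).

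Nr3c1, the glucocorticoid receptor, ran the other way. Control arrays lay between 8.29 and 8.43 at CT6 and between 8.44 and 8.53 at CT18, and knockout arrays between 8.18 and 8.43 at CT6 and between 8.46 and 8.68 at CT18, so in each genotype all CT18 arrays were above all CT6 arrays. The difference CT18 minus CT6 was 0.17 ± 0.07 (adjusted p = 0.221). The lowest array for this gene, 8.05, was knockout replicate 2 at CT0.

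Nr1h4, the bile acid receptor FXR, had the widest time difference of the 8 receptor genes with the smallest p for time. At CT0 control arrays read 6.12, 5.54 and 5.55 and knockout arrays 5.82, 5.13 and 5.47, and at CT12 control arrays read 5.64, 5.91 and 6.39 and knockout arrays 6.09, 6.17 and 5.71. CT12 minus CT0 was 0.38 ± 0.14 (adjusted p = 0.303), and the arrays at CT0 and CT12 overlapped in both genotypes. At CT18 the knockout arrays, at 5.45, 5.39 and 5.46, lay below the control arrays, at 5.88, 5.79 and 5.75. On every array the gene lay below the median gene.

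Hnf4a, a receptor known from liver and gut, had its lowest mean at CT12 and its highest at CT18 in both genotypes. At CT12 control arrays read 6.19, 6.34 and 6.41 and knockout arrays 6.50, 6.36 and 6.37. At CT18 control arrays read 6.41, 6.52 and 6.78 and knockout arrays 6.82, 6.48 and 6.56, and the knockout arrays of these times overlapped. CT18 minus CT6 was 0.13 ± 0.08 (adjusted p = 0.394), and the F test had an adjusted p of 0.307.

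Rara and Esr2 are shown with their upstream sequence because each holds an E-box, CACGTG, the element that the CLOCK and BMAL1 pair binds. The E-box is in capitals, and the stretches are chr11:98937678-98937717 (plus strand) for Rara and chr12:76177296-76177361 (minus strand) for Esr2, in GRCm38.p6 from RefSeq, 5′ to 3′ on the strand of the gene.
Rara: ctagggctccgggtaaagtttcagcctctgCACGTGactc
Esr2: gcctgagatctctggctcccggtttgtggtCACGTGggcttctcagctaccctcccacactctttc

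The E-box was found in 5 of the 38 receptor genes with an entry (13.2%), which were Thrb, Rara, Nr1i3, Esr2 and Nr0b2, against 8.09% of all genes. The motif AGGTCA, which ROR and REV-ERB receptors bind when it follows a stretch rich in A and T, was found in 9 of 38 (23.7%), against 18.1% of all genes, and the D-box in 1 of 38 (2.63%), Esrrg, against 3.99%. Each motif was searched on both strands, and these shares too were not adjusted for the number of starts per gene.

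The time course of Rara had its lowest mean over both genotypes at CT12, with control arrays at 6.23, 6.13 and 6.08 and knockout arrays at 6.06, 6.03 and 6.25. CT12 minus CT0 was -0.18 ± 0.06 (adjusted p = 0.279). At CT18 the control mean was 6.38 and the knockout mean 6.14, as described above for genotype. Esr2 had its highest mean at CT18, with control arrays at 5.57, 5.28 and 5.65 and knockout arrays at 5.55, 5.48 and 5.87, and CT18 minus CT6 was 0.18 ± 0.08 (adjusted p = 0.269). Thrb, the beta thyroid hormone receptor gene, had a distance of 0.13 between its highest and lowest time mean, against 0.28 for Thra.

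Over all receptor genes, times 12 h apart were compared as well. For CT12 minus CT0, 0 of 40 were called against 106 of all genes (0.532%), and 4 of 40 were under 0.05 unadjusted, against 10.6% of all genes. Of these 2 had higher values at CT12 (Nr1h3 and Nr1h4; 6.76% of all genes) and 2 lower (Thra and Rara; 3.8%). For CT18 minus CT6, 0 of 40 were called against 140 (0.702%), and 8 of 40 were under 0.05 unadjusted, against 16.4% of all genes. The 5 with higher values at CT18 were Nr1i2, Nr1i3, Esr2, Nr3c1 and Hnf4g (10.3% of all genes), and the 3 with lower values were Thra, Rarg and Nr2c1 (6.07%). Nr1i2, the pregnane X receptor, read 5.19, 5.09 and 4.95 in control and 5.07, 5.23 and 5.08 in knockout at CT6, and 5.26, 5.26 and 5.15 and then 5.26, 5.17 and 5.45 at CT18, a difference of 0.16 ± 0.06 (adjusted p = 0.232).

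One array set the largest differences among the receptor genes, which were picked out after their values were seen. Knockout replicate 2 at CT0 was the highest or lowest of the 24 arrays for 13 of 40 receptor genes (32.5%), against 23.2% of all genes. It was the highest for Esr1, Hnf4g, Nr2e1, Nr2f2, Pgr and Rorb and the lowest for Esrra, Nr1h3, Nr1h4, Nr2f1, Nr3c1, Rxra and Rxrg. The next array by that count, knockout replicate 3 at CT18, was extreme for 22.5% of the receptor genes and 21.8% of all genes.

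Pgr, the progesterone receptor and a target of estrogen receptors, read 9.23 on that array, and the other 23 arrays lay between 5.47 and 6.82. Esr1 read 9.12 there and between 7.53 and 8.23 on the others. Nr2f2, the receptor COUP-TFII of mesenchymal and endothelial cells, read 8.41 there and between 7.43 and 7.96 on the others. All of these genes thus stood outside the range of every other mouse on that array.

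The same array stood apart in markers of epithelium. The mean over 11 of 11 listed genes of uterine epithelium was 6.41 there and between 5.37 and 5.68 on the other arrays. Ltf, lactoferrin, read 7.29 against at most 4.97 elsewhere, and Epcam, an epithelial adhesion protein, 7.63 against at most 5.53, while Prss28 and Prss29, proteases of the uterine glands, lay within the range of the other arrays. The mean over 14 of 15 mammary and skin epithelium genes was 6.36 against 5.76 to 6.05, and that over 11 of 12 adipocyte genes 10.23 against 10.61 to 10.97. The mean over 9 of 9 smooth muscle genes was 9.37, the highest value, but close to the 9.21 of control replicate 2 at CT0, which also held the next highest Pgr, 6.82, and the next highest Esr1, 8.23. The part of these other cells in the receptor values was not tested.

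**Figure D4:**
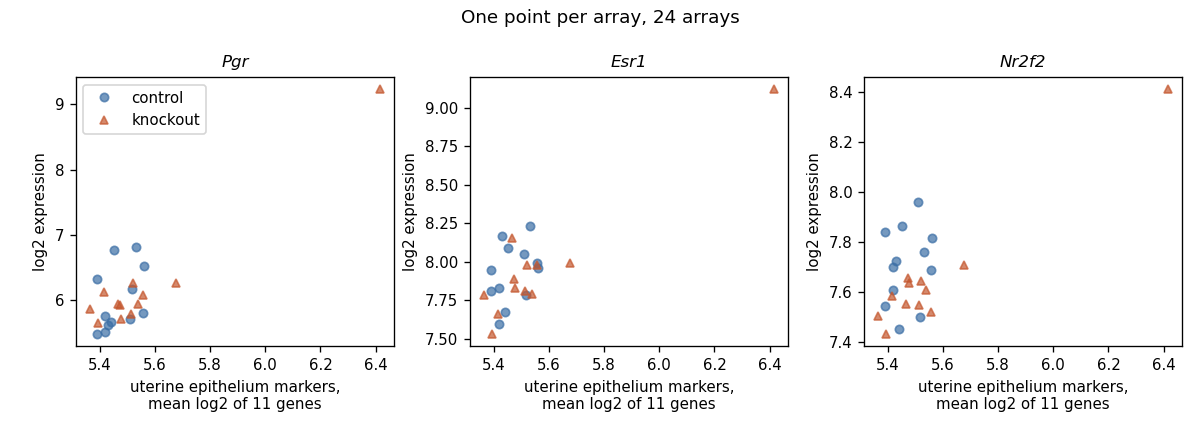
Log2 expression of Pgr, Esr1 and Nr2f2 against the mean log2 expression of 11 uterine epithelium genes, one point per array (24 arrays), control in blue circles and knockout in red triangles. Knockout replicate 2 at CT0, at 6.41 on the horizontal axis, stands apart from the other 23 arrays in each panel.

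With that array the genotype difference of Pgr at CT0 was 0.97 ± 0.56, and without it -0.17 ± 0.29, and the mean difference over the day went from 0.22 ± 0.28 to -0.06 ± 0.14. For Esr1 the difference at CT0 went from 0.40 ± 0.24 to -0.04 ± 0.17, and the mean difference from 0.03 to -0.08. CT12 minus CT0 for Pgr, -0.77 over both genotypes, became -0.21. For Nr2f2 the mean difference went from -0.05 ± 0.08 to -0.13 ± 0.05 (adjusted p = 0.687). On 11 of 12 knockout arrays Nr2f2 was under the mean of the control arrays collected at that CT, the exception being that array. None of these differences was called with or without it.

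Genes around the receptors were counted from lists of coregulators, ligand-supplying enzymes and target genes, which were chosen with earlier results of these data known. The target lists also hold the receptor genes Rarb, Pgr and Esrra, and some lists share genes, among them Klf9, Pdk4 and Fasn. Among coregulators 7 of 17 measured genes (41.2%) were under 0.05 unadjusted in the F test of time, against 16.1% of all genes. Of the 17 genes 1 was called for time, against 0.883% of all genes, and 0 for genotype, against 0.0201%. That gene was Nrip1, the corepressor RIP140, which is also a target of estrogen receptors and limits oxidative metabolism in fat. Control arrays of Nrip1 read 8.36, 8.51 and 8.59 at CT0 and 8.91, 8.61 and 8.67 at CT12, and knockout arrays 8.48, 8.32 and 8.41 and then 8.86, 8.60 and 8.82. All CT12 arrays were above all CT0 arrays in each genotype, and Nrip1 rose by 0.30 ± 0.06 from CT0 to CT12 (adjusted p = 0.0264), with an adjusted p of 0.0191 for time. Without both genotypes' replicate 1 at CT12 and replicate 3 at CT18 the F test no longer passed (adjusted p = 0.0947), while it passed without each single array in turn. The difference from CT0 to CT12 passed in 17 of 24 fits without 1 array, with adjusted p up to 0.105, and did not pass without those 4 arrays (adjusted p = 0.166). Marker lists of other cells moved with time as well. The smooth muscle mean in knockout fat was 8.85 at CT0 and 7.71 at CT12, and 8.29 and 8.12 in control fat. In the F test of time 7 of 9 smooth muscle genes and 6 of 9 progenitor genes were under 0.05 unadjusted, against 16.1% of all genes, and 0 of either list was called. The part of these cells in this and the following calls for time was not tested. Next in the list by p were Ppargc1b and Ep300, neither called, at an adjusted p of 0.121 each.

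Of the genes that supply or clear ligands 3 of 21 (14.3%) were under 0.05 unadjusted in the F test of time, against 16.1% of all genes. The 21 genes had 0 called for time, against 0.883% of all genes, and 0 for genotype, against 0.0201%. Among them are Hsd11b1, which regenerates active glucocorticoid and had a mean genotype difference of -0.06 ± 0.11, and Aldh1a3, a retinoic acid-forming enzyme, which had the smallest p for time in the list (adjusted p = 0.0934). Their median genotype difference was 0.04, and that of all genes 0.00.

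Among glucocorticoid receptor targets 2 of 13 were called for time, against 0.883% of all genes. Unadjusted, 6 of 13 (46.2%) were under 0.05 in the F test of time, against 16.1% of all genes. Zbtb16, a zinc finger factor induced by glucocorticoids, rose by 0.80 ± 0.15 from CT0 to CT12 (adjusted p = 0.0147). Its control arrays read 9.14, 9.11 and 9.12 at CT0 and 9.74, 10.06 and 9.96 at CT12, and its knockout arrays 9.27, 8.10 and 9.50 and then 9.86, 9.75 and 9.68, the 8.10 being knockout replicate 2. The F test of time for Zbtb16 had an adjusted p of 0.0175 and of 0.0946 without both genotypes' replicate 1 at CT12 and replicate 3 at CT18. The difference from CT0 to CT12 passed in 22 of 24 fits without 1 array, with adjusted p up to 0.0523, and did not pass without those 4 arrays (adjusted p = 0.0644).

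Tsc22d3, the glucocorticoid-induced leucine zipper GILZ, rose by 0.52 ± 0.11 from CT6 to CT18 (adjusted p = 0.0284). Control arrays read 8.23, 7.81 and 8.02 at CT6 and 8.80, 8.33 and 8.49 at CT18, and knockout arrays 7.94, 7.84 and 8.04 and then 8.35, 8.23 and 8.81, with no overlap in either genotype. The F test of Tsc22d3, at an adjusted p of 0.0344, passed in 11 of 24 fits without 1 array, with adjusted p between 0.0192 and 0.0671, and the difference passed in 17, with adjusted p up to 0.0841. Without both genotypes' replicate 1 at CT12 and replicate 3 at CT18 neither passed, with adjusted p of 0.164 for the F test and 0.171 for the difference. For genotype 0 of the 13 targets were called, against 0.0201% of all genes. The differences were below 0 for 12 of 13 targets and for 9851 of all 19938 genes, with medians of -0.21 and 0.00, and the targets were listed with earlier results of these data known. The lowest mean of the list, 8.16, was that of knockout replicate 2 at CT0. The receptor gene Nr3c1 itself had a mean genotype difference of -0.02 ± 0.05, with an interval from -0.11 to 0.08.

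Among targets of the fatty acid receptors induced by fasting 1 of 15 was called for time, against 0.883% of all genes. Unadjusted, 3 of 15 (20%) were under 0.05 in the F test of time, against 16.1% of all genes. Ucp3, a mitochondrial carrier, fell by 0.74 ± 0.14 from CT6 to CT18 (its difference was -0.74, adjusted p = 0.0203). Its control arrays read 7.75, 7.52 and 7.62 at CT6 and 7.13, 6.48 and 7.04 at CT18, and its knockout arrays 7.52, 7.86 and 7.78 and then 7.10, 7.09 and 6.79, with no overlap. The F test of Ucp3, at an adjusted p of 0.0422, passed in 7 of 24 fits without 1 array, with adjusted p between 0.0253 and 0.103, and the difference passed in 21, failing without control replicate 1 or knockout replicate 2 at CT6 or knockout replicate 3 at CT18. On knockout replicate 2 at CT6 the mean over 8 of 9 liver marker genes was 9.25, and on the other arrays it lay between 6.53 and 7.71. Without that array the call of Tsc22d3 was lost too (adjusted p = 0.0731 for the difference), and the part of this tissue in either value was not tested. Ppara and Ppard, the fatty acid receptor genes among the measured receptors, had distances between their highest and lowest time mean of 0.10 and 0.05.

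The target lists that follow had no called gene for genotype, and only Nrip1 was called for time among 9 measured estrogen receptor targets. For genotype, LXR targets had 0 of 12 called, with the smallest p at Mylip, a ubiquitin ligase of the LDL receptor, -0.25 ± 0.06 (adjusted p = 0.159). Thyroid hormone targets had 0 of 8, with Thrsp, a lipogenic nuclear protein, at -0.60 ± 0.14 (adjusted p = 0.182). Retinoic acid targets had 0 of 9, with Cyp26a1, which clears retinoic acid, at 0.15 ± 0.07 (adjusted p = 0.809). Estrogen receptor targets had 0 of 9, with Igfbp4 at -0.30 ± 0.06 (adjusted p = 0.135), and targets of the estrogen-related receptors 0 of 12, with Uqcrc1 at -0.08 ± 0.07 (adjusted p = 0.959). The clock gene Nr1d1, given for scale, was lower in knockout by 0.48 ± 0.08 (its difference was -0.48, adjusted p = 0.0438), a call that held in 6 of 24 fits without 1 array. Without the knockout array at CT0 described above, the mean genotype differences of the receptor genes ran from -0.13 for Nr2f2 to 0.18 for Rxrg.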

How the data were processed

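Deposited values are log2 expression from RMA, a method that corrects, normalizes and summarizes the probes of a set, per the submitters' processing notes. Total RNA (50 ng) was amplified before labelling, per the labels' protocols. Sources used here do not give the version of RMA or the dates. Arrays have no depth, and precision is limited by their number. The platform annotation gave the gene names: of 35556 probe sets, 21789 had 1 symbol, 1621 several and 12146 none. For 999 genes with several probe sets the one with the highest mean was used, which left 19938 genes, with no filter on dim genes.

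A model of the 8 groups was fitted over all 24 arrays by limma 3.58.1 (lmFit, eBayes; R 4.3.3). P-values were adjusted over all genes by Benjamini-Hochberg, with a threshold of 0.05. It was tested on simulated data. Genotype differences are knockout minus control, and each p is two-sided or from an F test. Array values or their range were given for the 8 receptor genes with the smallest p for time and the 6 for genotype. The same holds for the 3 genes with the smallest p for interaction and for the NR4A genes. Of each list, every called gene or up to 2 genes with the smallest p were described. Others were chosen after their values were seen. Members and lists were chosen with earlier results of these data known. Motifs were counted in RefSeq promoters of GRCm38.p6. The alternatives were a replicate block, other normalizations, filters and variance models, and fits without 1 or 4 arrays.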

Additional observations from a re-analysis of the deposited data

How the results depend on the processing

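All counts of called receptor genes stayed at 0 under every alternative run, with 1 exception: limma's array weights called 1 gene, Thra, for time over both genotypes. The counts without 1 array ranged from 0 to 0. The fit with the replicate number as a block shared over all times also called 0. No fit that paired equally numbered arrays of the genotypes within a time was run. The replicate numbers were not taken as pairing: deviations of equally numbered arrays from their group means correlated at 0.189, 0.374 and 0.327 at CT0, but between -0.37 and 0.157 at the other times. Counts over all genes moved more. For the mean genotype difference, 4 genes were called, 0 with the block, with quantile normalization or with trend and robust variance, 9 among genes above the median gene, 51 with array weights, 139 without both genotypes' replicate 1 at CT12 and replicate 3 at CT18, and 0 to 30 without 1 array. For time over both genotypes the 176 calls became 594 with array weights, 75 without those 4 arrays and 88 to 291 without 1 array. For CT18 minus CT6 the 140 calls became 238, 28 and 40 to 432, and for CT12 minus CT0 the 106 became 441, 69 and 30 to 170. Time in control gave 12 calls, 82 with array weights and 24 without the 4 arrays, and time in knockout 14, with 4 to 74 without 1 array. The cause was not tested. No receptor gene was called in the main fit, so no receptor call could be reversed. The called differences followed for Nrip1, Zbtb16, Tsc22d3, Ucp3 and Nr1d1 kept their sign in every fit. Uncalled mean genotype differences of several receptor genes, among them Pgr, Esr1 and Rarb, changed sign in some fits without 1 array.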
